A study of Mus musculus with 8 samples.

Results

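ER stress, heat shock and chaperone genes were followed in hearts of mice with mitral regurgitation (MR) and in Sham controls. The genes were chosen as a list of 45 symbols of protein-folding and stress-response genes, and all 45 were found by their Ensembl identifiers among the 33105 genes of the deposited table. Of these, 44 held enough counts to be tested. They fall into 15 chaperones and foldases of the endoplasmic reticulum (ER), 6 genes of ER-associated degradation, 6 sensors and transcription factors of the unfolded protein response (UPR), 9 cytosolic heat shock proteins, 2 mitochondrial chaperonins, 5 small heat shock proteins, and the pair Bag3 and Hsf1.

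Messenger RNA was sequenced from frozen hearts of C57BL/6J mice, with 4 libraries whose treatment label is Sham and 4 whose label is MR. In the MR group a minimally invasive operation makes the mitral valve leak, which loads the heart with volume, and the study asked which signalling pathways and genes go with the resulting hypertrophy. No other allele or agent is named for either group. For the sampled region of the heart, the age of the mice and the time after surgery, no entry was found in the sources used here. Library totals ran from 42291511 to 58658094 counts. The summed level of 7 cardiomyocyte markers was 39443 to 46215 CPM (counts scaled to a common library size) in Sham and 34266 to 38956 CPM in MR. Of these, Myh6 averaged 23013 CPM in Sham and 18911 CPM in MR, while Actn2 averaged 1392 and 1387 CPM. The tissue is a mixture of cell types, so fewer cells of a type and less RNA per cell cannot be told apart. The sample titles carry numbers that do not interleave between Sham and MR, and any difference in handling that follows those numbers cannot be told apart from MR.

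Proteins that enter the ER are folded there by the chaperone BiP, its ER partner of the HSP90 family, lectin chaperones and disulfide isomerases. When unfolded protein accumulates, the sensors IRE1, PERK and ATF6 start the UPR, in which transcription factors such as ATF6, XBP1 and ATF4 raise chaperone and degradation genes. The cytosol has a separate programme, in which HSF1 binds heat shock elements and raises the HSP70, HSP90 and HSP40 families. Small heat shock proteins hold partly unfolded proteins without using ATP, and several of them are abundant in cardiac muscle, where they associate with the sarcomere and the cytoskeleton.

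The classes differ in what their promoters hold, and the sequences below are shown because the genes that carry them recur in the results. Promoter windows of 300 bases, from 250 before to 50 after the annotated start, came from RefSeq on GRCm38.p6 and were available for 36 members. The ER stress element is known as a site for ATF6 together with the factor NF-Y. Searched on both strands as CCAAT and CCACG with 9 bases of any kind between them, it was in the windows of 7 of the 13 ER chaperones that have one. It was also in 2 of 5 degradation genes (Derl3 and Syvn1), in none of the 5 UPR regulators, 6 cytosolic heat shock genes and 4 small heat shock genes with a window, and in 0.137% of 27025 genes with a window. The shorter ER stress element II, searched as ATTGG and CCACG with 1 base between them, was in Herpud1 and Dnajb11 and in 0.0444% of genes. The heat shock element, searched as GAA, TTC and GAA with 2 bases in each gap, was in Hspd1, Hspe1 and Hsph1 and in 0.662% of genes. Each stretch is written 5′ to 3′ along the gene's strand, with the matched letters in capitals. Where the capitals begin with CGTGG, the element lies on the other strand.
Hspa5 (chr2:34772020-34772048, plus strand): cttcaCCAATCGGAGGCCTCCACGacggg
Pdia6 (chr12:17266471-17266529, plus strand): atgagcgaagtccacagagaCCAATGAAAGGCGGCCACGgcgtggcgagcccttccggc
Hsp90b1, element nearer the start (chr10:86705513-86705571, minus strand): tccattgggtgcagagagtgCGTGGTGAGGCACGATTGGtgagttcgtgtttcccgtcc
Calr (chr8:84847055-84847113, minus strand): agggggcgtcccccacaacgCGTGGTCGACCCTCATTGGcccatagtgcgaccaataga
Canx (chr11:50325780-50325838, minus strand): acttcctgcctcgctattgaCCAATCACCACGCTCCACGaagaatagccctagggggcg
Creld2 (chr15:88819500-88819558, plus strand): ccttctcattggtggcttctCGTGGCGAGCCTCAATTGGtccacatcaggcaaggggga
Dnajc3 (chr14:118937807-118937865, plus strand): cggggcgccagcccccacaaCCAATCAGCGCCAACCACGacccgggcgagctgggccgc
Herpud1, ER stress element II (chr8:94386357-94386407, plus strand): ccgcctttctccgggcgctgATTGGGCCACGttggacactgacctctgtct
Hspd1, heat shock element (chr1:55088054-55088076, minus strand): ttccgGAAGGTTCTAGAAcggac

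The Hspa5 element begins 65 bases before the annotated start, that of Pdia6 98 bases and that of Herpud1 52 bases. Hsp90b1 holds a second copy, which begins 212 bases before the start. The Hspd1 match lies within an exon of one annotated Hspd1 transcript. Hspd1 and Hspe1 are transcribed in opposite directions from neighbouring starts, so both genes' windows contain it. The UPR element TGACGTGG and the amino acid response element TGATGNAAT were found in 0 of the 36 windows, against 0.714% and 1.08% of all genes. The Hspa5 and Hspd1 stretches, which annotated exons of those genes reach, are shown with shorter flanks, and the other stretches lie outside annotated exons. A match is only a run of letters, and binding was not measured.

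Across the 44 tested genes the 3 main classes lay in different places along the MR-against-Sham axis. All 15 ER chaperones were lower in MR on average, with a median log2 fold change of −0.25. The 9 cytosolic heat shock proteins were spread on both sides of 0, with a median of −0.01, and 4 of the 5 small heat shock proteins were higher in MR on average, with a median of 0.14. The median over all 16603 tested genes was 0.0019, and 49.6% of them had a negative fold change. These class medians carry no test. Within groups, the mean log2 CPM of a class had an SD between libraries of 0.18 (ER chaperones), 0.23 (cytosolic) and 0.09 (small). Under every scaling of the libraries tried the ER chaperones were 15 of 15 negative. With library totals alone all 5 small heat shock proteins were positive, and the split of the cytosolic class moved from 5 negative to 4 negative, against 6 negative with a length trend removed.

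In the edgeR quasi-likelihood test, with Benjamini-Hochberg adjustment across the 16603 tested genes, 1 member passed a false discovery rate of 0.05 as lower in MR (Herpud1) and 0 passed as higher. Over all genes, 0.458% were called, 0.217% as lower and 0.241% as higher. At an unadjusted p under 0.05, edgeR gave 9 members lower and 1 higher, against 7.29% and 7.78% of all genes. The CPM ranges of the groups did not overlap for 5 members that were lower in MR (Herpud1, Hspa5, Pdia6, Dnajb9 and Dnajb1) and for 1 that was higher (Hspb8), against 3.91% and 4.19% of all genes. The labels do not say that each library is a separate animal, so every p-value refers to the scatter among libraries, part of which may be technical.

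Some other settings called further members. DESeq2 called 3 members lower (Herpud1, Hspa5 and Pdia6) and 1 higher (Hspb8), against 2.01% and 2.14% of all genes. Limma-voom with quality weights called 1 lower and 1 higher, against 1.26% and 1.49%. Without a filter 5 were lower (Herpud1, Hspa5, Pdia6, Calr and Dnajb1) and 1 was higher (Hspb8), against 1.37% and 1.69%. Those shares are over 30605 genes, which include genes with too few counts for the main test, so they are not like the others. Spread was also estimated with those genes included, so the adjusted p-values without a filter, given below, are not like the others either. With a trend in gene length removed 2 were lower and 0 higher, against 1.14% and 0.687%. Leaving out Sham replicate 3 gave 4 lower and 1 higher, against 2.32% and 2.96%. Without Sham replicate 1 only Herpud1 was called, against 0.356% of all genes called lower. Every other fit with a library left out called 0 members, against at most 0.0952% of all genes lower and 0.149% higher.

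**Figure D1:**
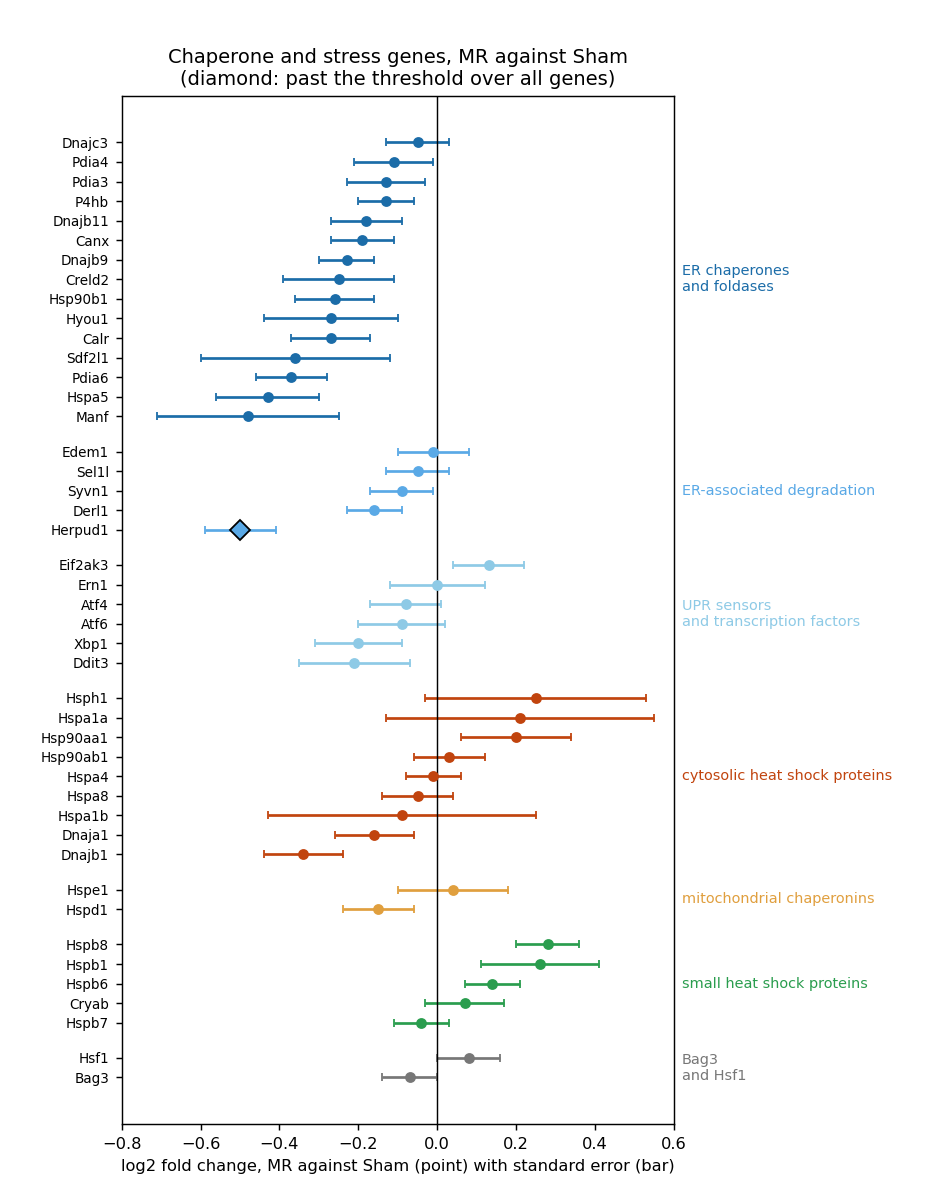
Log2 fold change (MR against Sham, horizontal axis) of the 44 tested genes, grouped by class, with bars for the standard error. All 15 ER chaperones lie left of 0, 4 of the 5 small heat shock proteins lie right of 0, and the diamond marks Herpud1, which passed the test over all genes at −0.50.

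Herpud1 encodes a membrane protein of the ER that organises the ubiquitin ligase complex for ER-associated degradation, and it is a well-known target of the UPR. Its gene lies on the plus strand at chr8:94386438-94395377 (GRCm38, ENSMUSG00000031770). Its normalised level was 215, 231, 196 and 264 CPM in Sham replicates 1 to 4 and 156, 167, 164 and 156 CPM in MR replicates 1 to 4. Every MR library was below every Sham library, and the MR libraries lay close together. The mean fell from 227 ± 28.7 CPM in Sham to 161 ± 5.47 CPM in MR (n = 4 each, SD), or by 29.0%. This is a log2 fold change of −0.50 with a standard error of 0.09 and an edgeR adjusted p of 0.0293. None of its transcript sequence was shared with another gene over 50 bases. The gene passed the threshold under all 8 other scalings, filters and tests, with adjusted p-values from 5.24e-07 without a filter to 0.0441 with library totals alone.

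With 1 library removed, the Herpud1 difference stayed between −0.56 and −0.41 but its call was often lost. The edgeR adjusted p was 0.0201 without Sham replicate 1 and 0.00217 without Sham replicate 3. It rose to 0.0905 without Sham replicate 2 and to 0.0921 without Sham replicate 4. Leaving out MR replicates 1, 2, 3 and 4 gave 0.0855, 0.0803, 0.0777 and 0.0707.

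The other genes of ER-associated degradation showed smaller differences. Derl1, a membrane protein of the path by which substrates leave the ER, ranged from 54.2 to 62.5 CPM in Sham and from 49.8 to 55.6 CPM in MR, with a log2 fold change of −0.16 ± 0.07 (SE) and an edgeR adjusted p of 0.292. Sel1l and Syvn1, the adaptor and the ligase of the complex that Herpud1 joins, gave log2 fold changes of −0.05 and −0.09. Edem1, which handles misfolded glycoproteins, gave −0.01. For these 4 genes the groups overlapped. Derl3, of the same family, was near the detection limit at 0.0464 to 0.237 CPM in Sham and 0.0669 to 0.133 CPM in MR, where 3 counts correspond to 0.0511 to 0.0709 CPM, and it was left out by the filter. The median of the 5 tested genes was −0.09.

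Hspa5 encodes BiP, the HSP70 of the ER, which also holds the UPR sensors inactive. It measured 612, 492, 505 and 788 CPM in Sham replicates 1 to 4 and 409, 432, 450 and 487 CPM in MR replicates 1 to 4. Sham replicate 4 was the highest and replicate 1 the next, while the lowest Sham value lay just above the highest MR value. The means were 599 ± 137 CPM in Sham and 445 ± 32.6 CPM in MR (n = 4 each, SD), a difference of 25.8%. The log2 fold change was −0.43 ± 0.13 (SE), with an edgeR adjusted p of 0.141, so that the gene did not pass the threshold. It passed with DESeq2 (adjusted p = 0.0335), without a filter (4.94e-05) and without Sham replicate 3 (0.041). Without Sham replicate 4 its log2 fold change was −0.27, with an adjusted p of 0.342.

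Pdia6 encodes a disulfide isomerase that works with BiP. Its level was 89.5, 73.1, 77.3 and 95.5 CPM in Sham and 59.7, 62.0, 68.3 and 69.8 CPM in MR. All MR libraries were below all Sham libraries. On the log2 scale the difference was −0.37 ± 0.09 (SE), with an edgeR adjusted p of 0.0762. DESeq2 called the gene at an adjusted p of 0.0099, and removing a trend with gene length or Sham replicate 3 gave 0.0324 and 0.0223. Without Sham replicate 4 the value was 0.244.

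Dnajb9, a J-domain co-chaperone that acts on BiP, was at 62.9, 59.1, 56.7 and 70.9 CPM in Sham and at 51.6, 52.8, 53.3 and 54.6 CPM in MR. The groups did not overlap, though the gap between Sham replicate 3 and MR replicate 4 was narrow. This gave a log2 fold change of −0.23 ± 0.07 (SE), with an edgeR adjusted p of 0.149, or 0.0448 without Sham replicate 3. Dnajb9 was called with no other library left out, where its adjusted p reached 0.413.

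Among the larger members of the class, Hsp90b1, the HSP90 of the ER, ranged from 213 to 287 CPM in Sham and from 186 to 240 CPM in MR. Calr and Canx, the lectin chaperones calreticulin and calnexin, ranged from 213 to 297 and from 354 to 423 CPM in Sham, and from 189 to 236 and from 311 to 360 CPM in MR. Their log2 fold changes were −0.26, −0.27 and −0.19, with edgeR adjusted p-values of 0.236, 0.226 and 0.267. Calr passed without a filter, at an adjusted p of 0.0379. In each of the 3 genes the highest MR library was replicate 4, and it lay within the Sham range. On Hsp90b1, 10.3% of the exon bases overlap a pseudogene on the opposite strand, and whether the counting used strand is not given.

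The isomerases other than Pdia6 differed less. The log2 fold change was −0.13 for Pdia3, the partner of the lectin chaperones, −0.11 for Pdia4 and −0.13 for P4hb, which also serves collagen prolyl hydroxylase, and all 3 had overlapping groups. Of the other BiP co-chaperones, Dnajb11 gave −0.18 and Dnajc3 −0.05. Dnajc3 was the ER chaperone with the smallest difference, and its value was 0.03 without Sham replicate 4.

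Manf, Sdf2l1, Creld2 and Hyou1 had their highest value in Sham replicate 4. Manf, a BiP-binding factor that can be secreted, was at 25.8, 18, 19.3 and 39.1 CPM in Sham and at 16.6, 19.1, 17.7 and 19.7 CPM in MR. Sham replicates 2 and 3 lay inside the MR range, and replicates 1 and 4 lay above it. Manf had the most negative log2 fold change of the ER chaperones, −0.48 ± 0.23 (SE), yet its edgeR adjusted p was 0.375, and without Sham replicate 4 the fold change was −0.20. Sdf2l1, which joins the BiP co-chaperone complex, was at 3.23, 2.42, 3.31 and 6.05 CPM in Sham and at 2.55, 3.30, 2.49 and 3.36 CPM in MR. Its difference of −0.36 was −0.03 without Sham replicate 4. Hyou1, a large HSP70-like chaperone that exchanges nucleotide on BiP, was at 39.2, 36.6, 38.4 and 63.6 CPM in Sham and at 34.9, 33.6, 39.3 and 40.1 CPM in MR. Its log2 fold change of −0.27 was −0.04 without that library. Creld2, an ER-resident protein with isomerase-like motifs, had a log2 fold change of −0.25, or −0.12 without it.

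**Figure D2:**
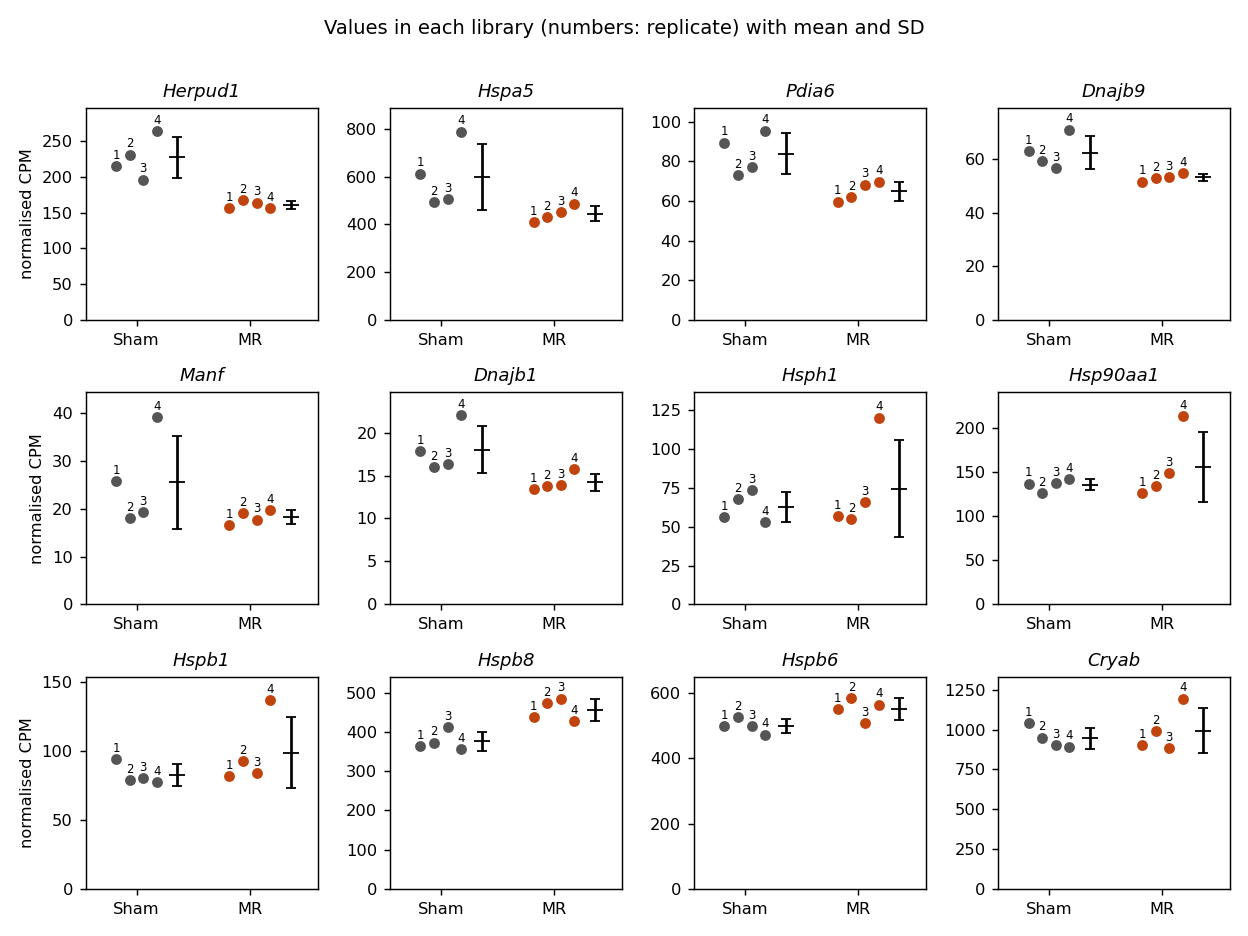
Normalised CPM (vertical axes, from 0) of 12 genes in each of the 4 Sham and 4 MR libraries, numbered by replicate, with the mean and SD of each group. Herpud1, Hspa5, Pdia6, Dnajb9 and Dnajb1 show no overlap below Sham and Hspb8 none above it, Manf has its highest value of 39.1 CPM in Sham replicate 4, and Hsph1 its highest of 120 CPM in MR replicate 4.

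Sham replicate 4 carried the highest of the 8 values in 13 of the 15 ER chaperones, against 2418 of all 16603 tested genes. The exceptions were Pdia3 and Dnajb11, which were highest in Sham replicate 1. Sham replicate 2 was the lowest Sham library in 12 of the 15. Summed over the class, Sham replicates 1 to 4 held 2212, 1908, 2016 and 2630 CPM and MR replicates 1 to 4 held 1721, 1749, 1848 and 1972 CPM. Only Sham replicate 2 had a sum below that of an MR library, and that library was MR replicate 4. Without Sham replicate 4, the class median was −0.13 and 14 of 15 genes remained negative. With each of the other libraries left out in turn, the median lay between −0.33 and −0.22 and 15 of 15 were negative.

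Markers of other cells followed part of this order. The summed level of 8 neutrophil markers was 33.8, 12.4, 9.36 and 62.7 CPM in Sham replicates 1 to 4 and 4.87, 6.47, 4.69 and 3.51 CPM in MR, so that Sham replicates 4 and 1 were again the highest. All 7 tested neutrophil markers had negative fold changes and 0 passed the edgeR threshold. At an unadjusted edgeR p under 0.05, 6 of them were lower, against 7.29% of all genes. The defining marker Ly6g was at 0 in Sham replicate 3 and in MR replicates 1 and 3, and at most 0.389 CPM elsewhere. The 6 plasma cell markers, of an ER-rich cell type, summed to 13.6 to 17.5 CPM in Sham and 13.4 to 16.1 CPM in MR. Of the 5 tested, Jchain and Igkc were called lower by edgeR, against 0.217% of all genes. Mzb1 had a log2 fold change of −0.40, while Sdc1 and Ighm went the other way at 0.30 and 0.19. Cardiomyocyte markers were all lower on average in MR, with a median log2 fold change of −0.28. The nearest to 0 were Actn2 at −0.0042 and Ryr2 at −0.06. Of the 7 cardiomyocyte markers edgeR called 0, with 5 lower at an unadjusted p under 0.05, against 7.29% of all genes. The 8 fibroblast markers summed to 903 to 1000 CPM in Sham and 1109 to 1304 CPM in MR. Their log2 fold changes ran from −0.05 to 1.19. Of these, edgeR called Col1a1 and Col1a2 higher (adjusted p = 0.0483 and 0.0159), against 0.241% of all genes. The part of these cell types in the ER chaperone result was not tested.

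The ER chaperones whose windows hold the long ER stress element had log2 fold changes from −0.43 (Hspa5) to −0.05 (Dnajc3). The other 6 ER chaperones with a window, which do not hold its letters there, ranged from −0.36 (Sdf2l1) to −0.11 (Pdia4). Herpud1 and Dnajb11, which hold the shorter element, gave −0.50 and −0.18.

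The UPR regulators themselves showed no called difference. Xbp1, the transcription factor whose messenger RNA is cut by IRE1, was at 57.3, 49.6, 49.4 and 73.4 CPM in Sham and at 44.9, 51.9, 52.7 and 50.3 CPM in MR. The groups overlapped and Sham replicate 4 was again the highest. Its log2 fold change was −0.20 ± 0.11 (SE), with an edgeR adjusted p of 0.434, and it was −0.06 without Sham replicate 4. Counts per gene do not separate the cut from the uncut Xbp1 form. Ddit3, which encodes the pro-apoptotic factor CHOP, ranged from 10.7 to 16.4 CPM in Sham and from 10.5 to 13.1 CPM in MR, with a log2 fold change of −0.21 ± 0.14 (SE). Atf4, the translationally controlled factor downstream of PERK, gave −0.08, and Atf6 gave −0.09.

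The kinases of the pathway lay nearest to 0 or above it. Eif2ak3, which encodes PERK, was at 8.38 to 10.2 CPM in Sham and 9.78 to 10.3 CPM in MR, with a log2 fold change of 0.13 ± 0.09 (SE) and an edgeR adjusted p of 0.555. Ern1, which encodes IRE1, averaged 19.8 CPM in both groups, and its sign changed with the scaling. Of the 6 regulators 0 passed the edgeR test, and 0 had an unadjusted p under 0.05 there, against 15.1% of all genes. DESeq2 and limma-voom also called 0 of them. The class median was −0.09. Protein levels, phosphorylation of the sensors and cleavage of ATF6 were not measured.

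The cytosolic heat shock proteins lay on both sides of 0, with 0 called by edgeR, DESeq2 or limma-voom. At an unadjusted edgeR p under 0.05, 1 was lower, against 7.29% of all genes. MR replicate 4 was the highest of the MR group in all 9 genes, and the highest of all 8 libraries in 7 of them, against 4235 and 1805 of 16603 tested genes. The class summed to 2853, 2550, 2676 and 2780 CPM in Sham replicates 1 to 4 and to 2529, 2508, 2609 and 3206 CPM in MR replicates 1 to 4. Without MR replicate 4 the class median was −0.12 and 8 of 9 genes were negative. With each other library left out it lay between 0.0018 and 0.06.

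Hsph1, the nucleotide exchange chaperone of the HSP110 family, was at 56.0, 67.4, 73.3 and 52.8 CPM in Sham and at 56.5, 54.6, 65.7 and 120 CPM in MR. MR replicate 4 stood far above the others, which lay within the Sham range. Its log2 fold change of 0.25 ± 0.28 (SE) became −0.08 without that library. Hsp90aa1, the stress-inducible cytosolic HSP90, was at 137, 126, 138 and 142 CPM in Sham and at 126, 134, 149 and 214 CPM in MR. Here too the difference of 0.20 ± 0.14 (SE) came down to 0.01 without MR replicate 4. Of its transcript windows of 50 bases, 47.5% also occur in other genes, so its counts are uncertain. Hsp90ab1, the constitutive partner, ranged from 1076 to 1171 CPM in Sham, with 3 MR libraries at 1045 to 1096 CPM and MR replicate 4 at 1345 CPM. Its log2 fold change was 0.03, or −0.06 without MR replicate 4.

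Hspa1a and Hspa1b, the classic inducible HSP70 genes, were low. Hspa1a was at 1.16, 1.21, 0.743 and 1.47 CPM in Sham and at 1.13, 0.93, 0.743 and 2.41 CPM in MR. Hspa1b was at 2.51, 1.99, 1.85 and 3.54 CPM in Sham and at 1.70, 1.2, 2.32 and 4.02 CPM in MR. Both were highest in MR replicate 4, followed by Sham replicate 4. Their log2 fold changes were 0.21 ± 0.34 and −0.09 ± 0.34 (SE), and the first became −0.29 without MR replicate 4. The genes share 66.3% and 62.3% of their transcript windows with other genes, mostly with each other, so reads may have been divided between them or lost.

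Hspa8, the constitutive HSP70 that also strips clathrin coats, was at 1183, 990, 1025 and 1209 CPM in Sham and at 1011, 1004, 1017 and 1215 CPM in MR. Both groups held high libraries, and the log2 fold change was −0.05. Of its transcript windows, 39.4% also occur in other genes, mostly in a pseudogene, so its counts are uncertain. Hspa4, an HSP110 relative, gave −0.01, with 176 to 201 CPM in Sham and 187 to 208 CPM in MR.

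Both HSP40 co-chaperones in the list had negative fold changes. Dnajb1, a heat-inducible activator of HSP70, was at 17.8, 16.0, 16.3 and 22.0 CPM in Sham and at 13.4, 13.8, 13.9 and 15.7 CPM in MR. All MR libraries were below all Sham libraries, and the highest of each group was replicate 4. The log2 fold change was −0.34 ± 0.10 (SE), with an edgeR adjusted p of 0.133 and 0.0563 with DESeq2. Of the 16 alternatives it passed only the one without a filter, at 0.0174, where 1.37% of 30605 genes were called lower. Dnaja1, which helps HSP70 in folding and mitochondrial import, gave −0.16 ± 0.10 (SE) with overlapping groups.

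A list of 2 cold-inducible genes, Cirbp and Rbm3, ran opposite to the heat shock genes in MR replicate 4. Their summed level was 102, 82.7, 76.2 and 100 CPM in Sham replicates 1 to 4 and 76.2, 81.4, 81.4 and 63.2 CPM in MR replicates 1 to 4. MR replicate 4 was the lowest of the 8 libraries for both genes, and the label of that library gives nothing that sets it apart. The part of this pattern in the heat shock values was not tested.

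**Figure D3:**
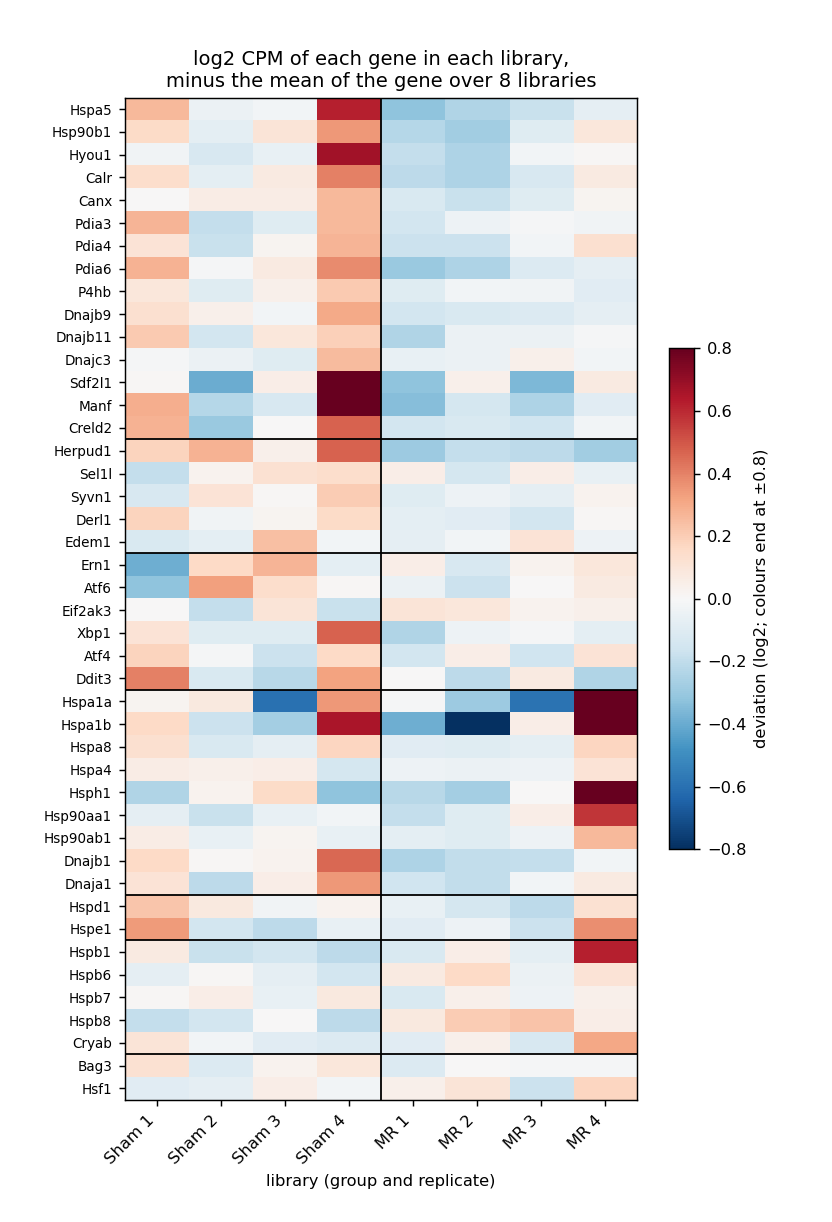
Deviation of each gene's log2 CPM from its mean over the 8 libraries (colour, log2 scale), with genes in rows by class and libraries in columns. The ER chaperones are reddest in Sham replicate 4, which is highest in 13 of 15, and the cytosolic heat shock proteins in MR replicate 4, which is highest in 7 of 9.

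The mitochondrial chaperonins, which fold imported proteins together, were split. Hspd1, the HSP60 subunit, was at 547, 498, 462 and 479 CPM in Sham and at 450, 425, 407 and 510 CPM in MR. Its co-chaperonin Hspe1 was at 103, 73.4, 70.0 and 78.0 CPM in Sham and at 76.3, 79.0, 72.4 and 105 CPM in MR. For both genes the highest library of each group was Sham replicate 1 and MR replicate 4. The log2 fold changes were −0.15 ± 0.09 and 0.04 ± 0.14 (SE), and neither passed the test. Of the transcript windows, 42.1% for Hspd1 and 22.8% for Hspe1 also occur in other genes. The pseudogene Hspd1-ps3 alone holds 38.0% of the Hspd1 windows.

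The small heat shock proteins had a positive median, and 0 of the 5 passed the edgeR test. At an unadjusted edgeR p under 0.05, 1 was higher, against 7.78% of all genes. Hspb8, a partner of the co-chaperone BAG3 in the selective autophagy of damaged sarcomere proteins, was at 363, 373, 412 and 357 CPM in Sham and at 437, 474, 485 and 427 CPM in MR. Every MR library was above every Sham library. The means were 376 ± 24.9 and 456 ± 28.1 CPM (n = 4 each, SD), or 21.2% higher in MR. The log2 fold change was 0.28 ± 0.08 (SE), with an edgeR adjusted p of 0.101, which did not pass the threshold. It passed with DESeq2 (0.0105), with limma-voom (0.0436), without a filter (0.0313) and without Sham replicate 3 (0.0271). Hspb8 was called with no other library left out, where its edgeR adjusted p reached 0.309. Its fold change kept to 0.25 to 0.32 with any library left out, and no transcript window was shared with another gene.

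Hspb6, a phosphoprotein of cardiac and smooth muscle, was at 500, 527, 500 and 473 CPM in Sham and at 551, 586, 508 and 565 CPM in MR. Only MR replicate 3 lay within the Sham range. On the log2 scale MR was above Sham by 0.14 ± 0.07 (SE), with an edgeR adjusted p of 0.373. Hspb1, an actin-binding member, was at 94.2, 79.0, 80.6 and 77.6 CPM in Sham and at 82.0, 92.7, 84.4 and 137 CPM in MR. MR replicate 4 was the only library above the highest Sham value, and the log2 fold change of 0.26 ± 0.15 (SE) was 0.06 without it. A pseudogene shares most of the 50.1% of Hspb1 windows that occur elsewhere.

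Cryab, the αB-crystallin that binds desmin and titin, was at 1039, 950, 904 and 893 CPM in Sham and at 905, 992, 884 and 1194 CPM in MR. The groups overlapped, and MR replicate 4 was again the highest. Its log2 fold change was 0.07 ± 0.10 (SE), or −0.03 without MR replicate 4. Hspb7, a muscle-specific member needed for sarcomere integrity, averaged 1234 ± 49.7 CPM in Sham and 1198 ± 62.2 CPM in MR (n = 4 each, SD). It was the single small heat shock protein with a negative log2 fold change, −0.04, which was 0.0019 when libraries were scaled by totals alone. Of the Cryab exon bases, 17.0% overlap Hspb2 on the opposite strand. Without MR replicate 4 the class median was 0.06 with 3 of 5 genes positive, and with each other library left out it was 0.11 to 0.18.

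Bag3, which links HSP70 to the small heat shock proteins, ranged from 150 to 176 CPM in Sham and from 150 to 162 CPM in MR, with a log2 fold change of −0.07. Hsf1, the heat shock transcription factor, ranged from 22.5 to 24.8 CPM in Sham and from 21.3 to 27.0 CPM in MR, with a log2 fold change of 0.08. Neither the Hspb8 partner nor the cytosolic regulator passed the test, with adjusted p-values of 0.704 and 0.713 in edgeR.

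**Figure D4:**
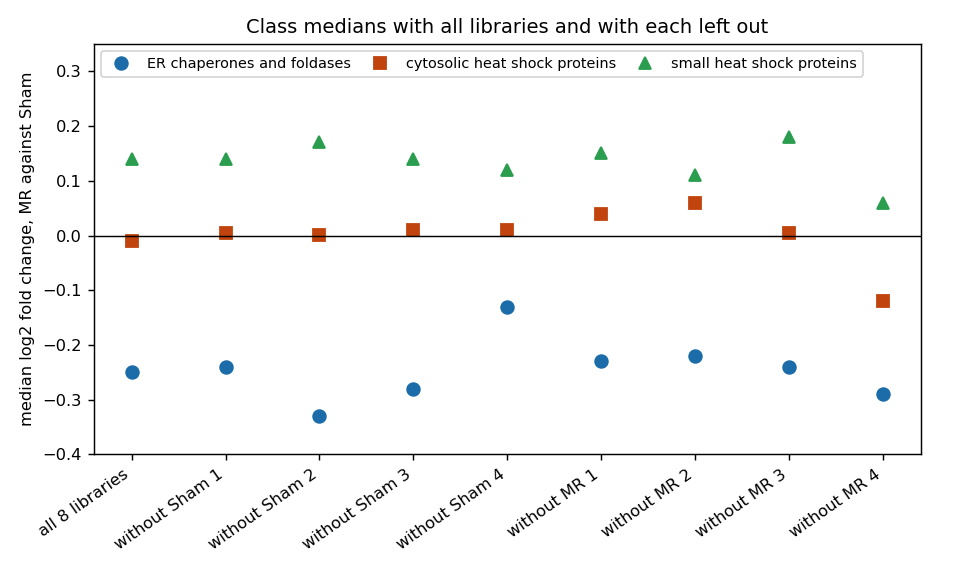
Median log2 fold change (MR against Sham, vertical axis) of the ER chaperones, cytosolic heat shock proteins and small heat shock proteins with all 8 libraries and with each library left out in turn. The ER chaperone median shrinks from −0.25 to −0.13 without Sham replicate 4. Without MR replicate 4 the cytosolic median moves to −0.12 and the small heat shock median to 0.06. The order of the 3 classes is the same in each of the 9 fits, which share most of their libraries.

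Levels between genes were compared per kilobase of exon (RPKM, the CPM value divided by exon length in kilobases). On this scale the small heat shock proteins Cryab, at 640, and Hspb7, at 446, had the highest means in Sham hearts, followed by the cytosolic Hsp90ab1 at 372 and Hspa8 at 256. The other small heat shock proteins were Hspb6 at 217, Hspb8 at 193 and Hspb1 at 80.3. The cytosolic class reached down to 0.386 for Hspa1a. Hspa5 at 142 was the highest ER chaperone, followed by Calr at 86.5, Canx at 80.7 and P4hb at 69.2, and Sdf2l1 at 3.38 was the lowest. Herpud1, at 97.1 in Sham and 68.9 in MR, exceeded all ER chaperones but Hspa5 in Sham and lay below Calr and Canx in MR. The UPR regulators were low, from 26.3 for Atf4 to 1.52 for Eif2ak3.

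**Figure D5:**
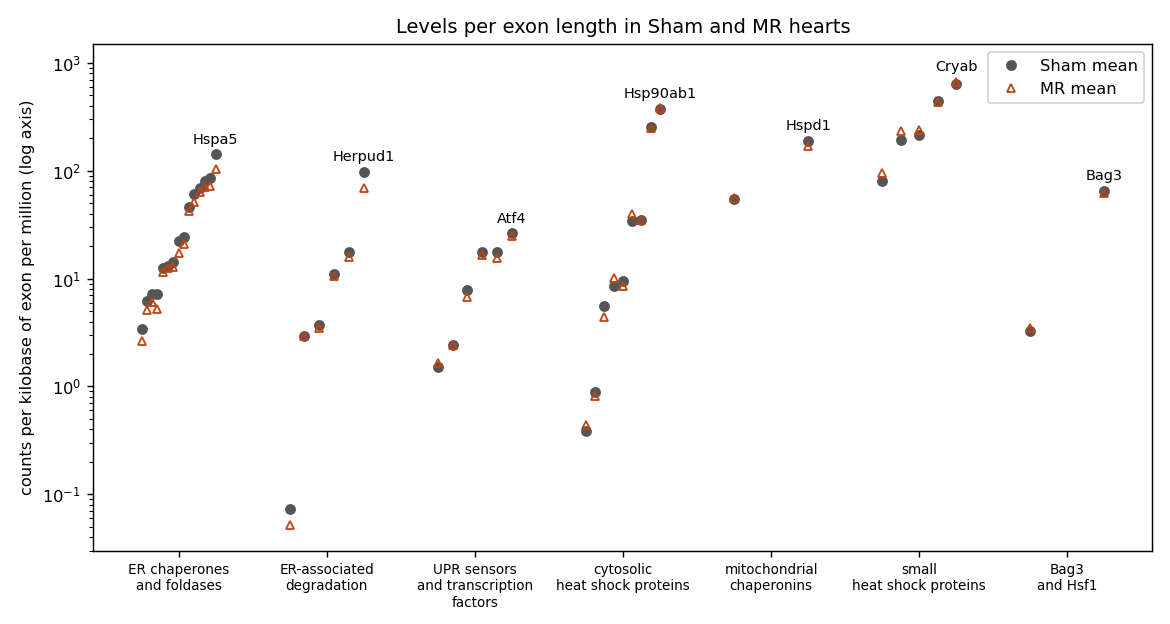
Mean level per exon length (RPKM, log axis) of the 45 genes by class in Sham (filled circles) and MR (open triangles), with the highest gene of each class named. Cryab is the highest at 640 in Sham, and the circle of Herpud1 at 97.1 stands above its triangle at 68.9.

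The same pathways were then followed beyond the 45 genes, in 8 further lists with 150 genes, of which 145 were tested. The edgeR test called 0 of them, with 23 at an unadjusted p under 0.05 (10 higher, 13 lower), against 15.1% of all genes. DESeq2 called 7, against 4.14% of all genes, and limma-voom 5, against 2.75%. Leaving out Sham replicate 3 also gave 7, against 5.28%. Among 30 other ER folding and translocation genes 19 were negative, with a median of −0.05. The gene with the lowest p was Sil1, a nucleotide exchange factor of BiP, at 13.0, 12.5, 12.1 and 14.9 CPM in Sham and 10.4, 10.3, 9.22 and 10.1 CPM in MR. All MR libraries were below all Sham libraries, with a log2 fold change of −0.39 ± 0.09 (SE) and an edgeR adjusted p of 0.0697. Os9, a lectin of ER-associated degradation, gave −0.19 ± 0.07 (SE), while the 18 further degradation and UPR genes, Os9 included, had a median of 0.07.

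Of 17 tested collagen folding enzymes of the ER, 12 had positive and 5 negative fold changes, with a median of 0.04. The edgeR test called 0 of them, with 4 at an unadjusted p under 0.05, all higher, against 7.78% of all genes. Serpinh1, the collagen-specific chaperone HSP47, was at 139, 130, 153 and 144 CPM in Sham and at 167, 172, 171 and 203 CPM in MR. Every MR library was above every Sham library, in contrast to Hspa5 and Pdia6 in the same compartment. Its log2 fold change was 0.33 ± 0.08 (SE), with an edgeR adjusted p of 0.0766. Plod1, a collagen lysyl hydroxylase, gave 0.28 ± 0.07 (SE), and P3h2, a collagen prolyl hydroxylase, gave 0.58 ± 0.15 (SE), both without overlap and with adjusted p-values of 0.0862 and 0.0948. An antisense gene overlaps 28.4% of the P3h2 exon bases. DESeq2 called all 3, which are the genes of this list with the lowest edgeR p, against 2.14% of all genes called higher. Of the 17 genes, 3 had MR above Sham without overlap, against 4.19% of all genes. The summed fibroblast markers were higher in each MR library than in any Sham library, as given above. Within that list Col1a1, Col1a2, Col3a1 and Postn had log2 fold changes from 0.63 to 1.19. Lum and Pdgfra gave 0.19 and 0.20, while Dcn and Tcf21 gave −0.01 and −0.05. The part of fibroblasts in the enzyme values was not tested.

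The integrated stress response is the pathway from PERK and related kinases to ATF4. Of 20 tested targets, 15 had positive and 5 negative fold changes, with a median of 0.12, against 49.6% negative over all genes. Mthfd2 and Slc7a5, which serve folate metabolism and amino acid uptake, had log2 fold changes of 0.57 ± 0.20 and 0.37 ± 0.13 (SE). Slc3a2, the heavy chain that pairs with Slc7a5 at the membrane, went the other way at −0.28 ± 0.07 (SE). Its MR libraries, at 23.6 to 25.7 CPM, all lay below its Sham libraries at 29.1 to 31.2 CPM, with an edgeR adjusted p of 0.0697. Ddit4 was negative too, at −0.27 ± 0.10 (SE), as were the members Atf4 and Ddit3 described above.

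In the cytosolic HSP70, HSP40 and HSP90 systems, 20 of 34 further genes were negative, with a median of −0.03. Stub1, the ubiquitin ligase CHIP that acts on HSP70 clients, was at 31.6, 26.1, 24.0 and 29.8 CPM in Sham and at 21.8, 22.6, 21.1 and 22.4 CPM in MR. The groups did not overlap, and the log2 fold change was −0.34 ± 0.09 (SE) with an edgeR adjusted p of 0.0855. Of its exon bases, 42.3% overlap a gene on the opposite strand. Hspa4l, a relative of Hspa4 and Hsph1, was higher in MR at 86.9 to 108 CPM than in Sham at 70.5 to 86.2 CPM, with 0.25 ± 0.09 (SE) and an adjusted p of 0.184. Fkbp5, an HSP90 co-chaperone and glucocorticoid target, had the most negative value of these lists, −0.69 ± 0.25 (SE), but MR replicate 3 lay within the Sham range and the adjusted p was 0.267.

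The chaperonin TRiC with prefoldin (13 genes, median −0.04) and the mitochondrial folding genes (10 genes, median −0.05) stayed close to the median of all genes. Sham replicate 1 was highest of the 8 libraries in 12 of the 13 and 8 of the 10, against 3689 of 16603 tested genes. That library was also lowest in 3434 of all tested genes and had the lowest limma-voom quality weight, 0.4. Trap1, the mitochondrial HSP90, was at 144 to 161 CPM in Sham and 124 to 132 CPM in MR, without overlap, at −0.24 ± 0.07 (SE) and an edgeR adjusted p of 0.101. Of 3 further tested genes with an Hspb symbol, Hspb11 was at 1.99 to 2.77 CPM in Sham and 2.99 to 3.21 CPM in MR, at 0.33 ± 0.14 (SE). A shared symbol does not show that a gene encodes a small heat shock protein. Hspb3 gave 0.14 and Hspb2 −0.14. None of these passed the edgeR test.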

How the data were processed

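The deposited table holds raw read counts per Ensembl gene, which the authors made from 8 mRNA libraries of mouse heart. Per the submitters' processing notes, HISAT2 2.0.5 and mm10 are listed, with no role stated. How reads were assigned to genes, including strand and annotation, is not given in the sources used here. GENCODE genes on GRCm38 (the assembly behind mm10) supplied symbols, coordinates and union exon lengths, and 32350 of 33105 identifiers matched. Groups follow the treatment label, and replicate numbers only name libraries, in accession order. Members and gene lists were chosen with earlier results of these data known.

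Counts were filtered with filterByExpr (minimum count 10, minimum total 15), scaled by TMM (factors 0.967 to 1.019) and compared in R 4.3.3 by robust quasi-likelihood F tests of edgeR 4.0.16. Benjamini-Hochberg adjustment ran over 16603 genes, with a threshold of 0.05. Printed CPM values use the TMM-scaled library size. Standard errors equal the log2 fold change over the root of F. Biological variation between libraries had a coefficient of 0.12. A single count equalled 0.017 to 0.0236 CPM, and 3 counts, the limit that a count of 0 allows, 0.0511 to 0.0709 CPM, for counting error only.

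The 16 alternatives were other scalings, filters and moderation, DESeq2 1.42.0, limma-voom 3.58.1 with quality weights, removal of a trend with exon length (loess span 0.5), and each library left out. The script was tested on simulated data. Shared sequence was counted as windows of 50 bases that also occur in transcripts of other genes. All 45 members could be named, and up to 4 genes per further list by lowest p.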

Additional observations from a re-analysis of the deposited data

Results flagged for a closer look

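Within each group of 4 libraries, the highest and lowest value of every member was compared with the others by Dixon's criterion at the 95% level, which sets the gap to the nearest library against the whole range. It was met 7 times in 90 groups, and chance alone meets it in about 1 of 20. MR replicate 4 was the library in 4 cases. It was highest for Hspa8, the constitutive HSP70, whose counts are uncertain because of a pseudogene, at 1215 CPM against 1004 to 1017 CPM in the other MR libraries. It was also highest for the exchange factor Hspa4, at 208 CPM against 187 to 188 CPM, for Hsph1 at 120 CPM against 54.6 to 65.7 CPM, and for Hsp90ab1 at 1345 CPM against 1045 to 1096 CPM. Sham replicate 4 was highest for the ER chaperone Hyou1, at 63.6 CPM against 36.6 to 39.2 CPM, and lowest for Hspa4, at 176 CPM against 198 to 201 CPM. MR replicate 1 was lowest for Bag3, at 150 CPM against 161 to 162 CPM. Hspa4 thus met the criterion in both groups, in opposite directions.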

How the results depend on the processing

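No paired analysis was possible because the labels give the groups no shared replicate numbers. The calls depended on the test and filter more than the fold changes did. The members called higher and lower were 1 and 5 without a filter (all genes 936, further lists 9), and 1 and 3 with DESeq2 (688 and 7). Limma-voom called 1 higher (457 and 5), and removal of the length trend gave 2 lower (304 and 4). The main test called 76 genes in all. The split of all calls was 40 higher and 36 lower, against 53 and 17 with library totals alone and 114 and 190 with the length trend removed. With a library left out, 0 to 1 members were called higher and 0 to 4 lower, 3 to 887 genes in all and 0 to 7 genes of the further lists, and the cytosolic median ran from −0.12 to 0.06. Leaving out Sham replicate 3 gave the 887, and leaving out Sham replicate 2 the 3. The cause was not tested.

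The cytosolic median was 0.04 with library totals alone. That setting also moved Edem1 to 0.03, Hspa4 to 0.04 and Hspb7 to 0.0019. Ern1, at 0.0001, went to −0.0039 with RLE factors, −0.0041 with DESeq2, −0.04 with limma-voom and −0.05 with the length trend removed, where Hsp90ab1 was −0.0024. With a library left out, 25 values of 11 genes changed sign, and the ranges over all 8 such fits were −0.12 to 0.09 for Ern1, −0.05 to 0.01 for Hspa4, −0.06 to 0.07 for Edem1, −0.51 to 0.14 for Hspa1b, −0.29 to 0.40 for Hspa1a, −0.10 to 0.17 for Hspe1, −0.21 to 0.01 for Atf6, −0.10 to 0.03 for Dnajc3, −0.08 to 0.38 for Hsph1, −0.06 to 0.06 for Hsp90ab1 and −0.03 to 0.12 for Cryab. No member past the threshold changed direction. Of 704 member values under the alternatives, 651 kept direction and side of the threshold. With 4 libraries per group, Derl3 was too low to compare at this depth.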

Other observations

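Immediate-early genes, which respond to stretch and to handling of tissue, summed to 113 to 127 CPM in Sham and to 122 to 156 CPM in MR, with the highest sum in MR replicate 3 and not in replicate 4. Egr1 was at 7.61, 5.11, 5.99 and 5.22 CPM in Sham and at 10.6, 9.61, 18.6 and 11.5 CPM in MR, without overlap, with an edgeR adjusted p of 0.0529. Of 13 circadian clock genes 10 had negative fold changes and 0 passed the edgeR test, with 6 lower and 2 higher at an unadjusted p under 0.05, against 7.29% and 7.78% of all genes. These values are given as a description.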
